A study of Mus musculus with 20 samples.

Results

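The data described here are the differences in RNA level among livers that were given the same vector, in all 20 livers of the series. Each liver was compared with the mean of its own vector group, for the 11815 genes whose mean level reached 2 CPM (counts scaled to the size of the library) out of 25238 genes counted in both experiments. The livers were from male C57BL/6J mice injected into a vein at 8 weeks of age with an adeno-associated virus of serotype 8 (AAV8), a virus that carries genes into hepatocytes, and kept on a diet named HF/HS until 25 weeks of age. Expression from the vectors was under a thyroxine binding globulin promoter, per the labels, so it was aimed at hepatocytes. The 4 groups of 5 livers received a short hairpin RNA against firefly luciferase (shLUC), a hairpin against Pklr (shPKLR), GFP, or the Pklr cDNA (PKLR). The shLUC and shPKLR livers form the knockdown experiment and the GFP and PKLR livers the overexpression experiment, and each was counted in a table of its own. Levels are given for every group, but no test compared one group with another. The labels do not say at what hour or in which feeding state the livers were taken, or which mice shared a cage.

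The liver of an inbred mouse still changes its RNA with the hour of the day, with feeding, with the pattern in which growth hormone is released, and with the number and state of its immune cells. In males, pulses of growth hormone maintain genes such as the major urinary proteins (Mup) and Hsd3b5, while genes such as Cyp2b9 are higher in females. The clock genes, the lipogenic genes and the sterol genes are each driven by shared transcription factors, so their members are known to move as sets.

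Pklr, which encodes the liver isoform of pyruvate kinase and is the gene the vectors target, was read first in every liver. In replicates 1 to 5, the order used for all values given by liver, Pklr stood at 378, 537, 350.4, 495 and 645 CPM in the shLUC livers and at 69.9, 52.7, 40.7, 25.4 and 84.2 CPM in the shPKLR livers. Pklr then stood at 63.9, 102, 134, 145 and 144 CPM in the GFP livers and at 769, 839, 924, 379 and 818 CPM in the PKLR livers. Every shPKLR liver lay below every shLUC liver, and every PKLR liver lay above every GFP liver, as labelled. PKLR replicate 4, at 379 CPM, stood apart from the other livers of its group, which lay between 769 and 924 CPM. Endogenous Pklr RNA and RNA made from the vector were not told apart.

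Library totals were between 29933820 and 45413803 counts in 19 libraries and 167891680 in shPKLR replicate 4. That liver also lay farthest from its group: its root mean square deviation over all genes was 0.52 on the log2 scale, against 0.18 to 0.37 in the other 19 livers. It accounted for 17.6% of the within-group sum of squares and was the most deviant liver in 39.9% of genes. Its deviations fell with transcript length, by 0.11 on the log2 scale per doubling, while those of shPKLR replicate 5 rose by 0.07. These 2 livers form the ends of the first principal component of the deviations, which held 30.2% of the within-group variance. GFP replicate 1 and GFP replicate 5 form the ends of the second component, with 17.8%. The 17 hepatocyte identity genes summed to between 93910 and 145800 CPM in every liver. All RNA is from whole liver, so that a change in the number of cells of a type and a change in RNA per cell cannot be told apart.

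**Figure D1:**
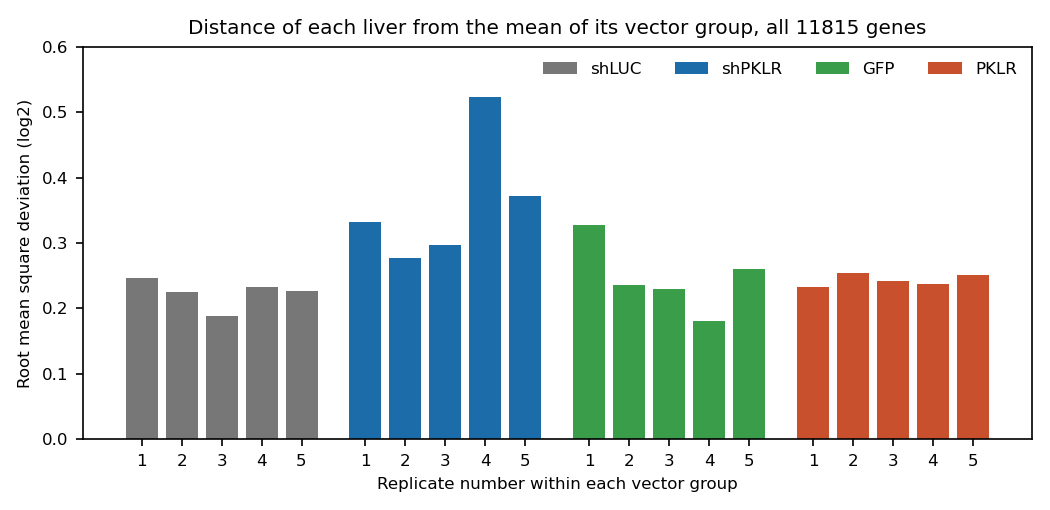
Root mean square deviation of each liver from the mean of its vector group (bars, log2 scale) over 11815 genes, by replicate number and vector group. shPKLR replicate 4 is highest at 0.52.

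The typical gene varied little among livers given the same vector. The within-group standard deviation (SD, log2 CPM, 16 degrees of freedom) had a median of 0.23, a 1.17-fold step, and a 90th percentile of 0.44, a 1.36-fold step. Counting error alone gave a median of 0.06, and 85.3% of genes had an SD at least 2 times their own counting error. An SD of at least 1 was reached by 58 genes (0.491% of all), and 14 of them were Mup genes or pseudogenes. The SD among knockdown livers was set against that among overexpression livers, which share no liver. Across genes the 2 had a Spearman coefficient of 0.55, and 43 of the 100 most variable genes of each were shared. Neither value was adjusted for the level of a gene, on which counting error depends, and near-identical genes such as Mup were not set aside. The median SD was 0.18 in shLUC, 0.31 in shPKLR, 0.17 in GFP and 0.16 in PKLR livers. At the limit of 2 CPM, Rpusd1 and Lrp11 lay just inside, with means of 2.0013 and 2.0026 CPM, and Ralgds and Zfp772 just outside, with SDs of 0.31 and 0.35.

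**Figure D2:**
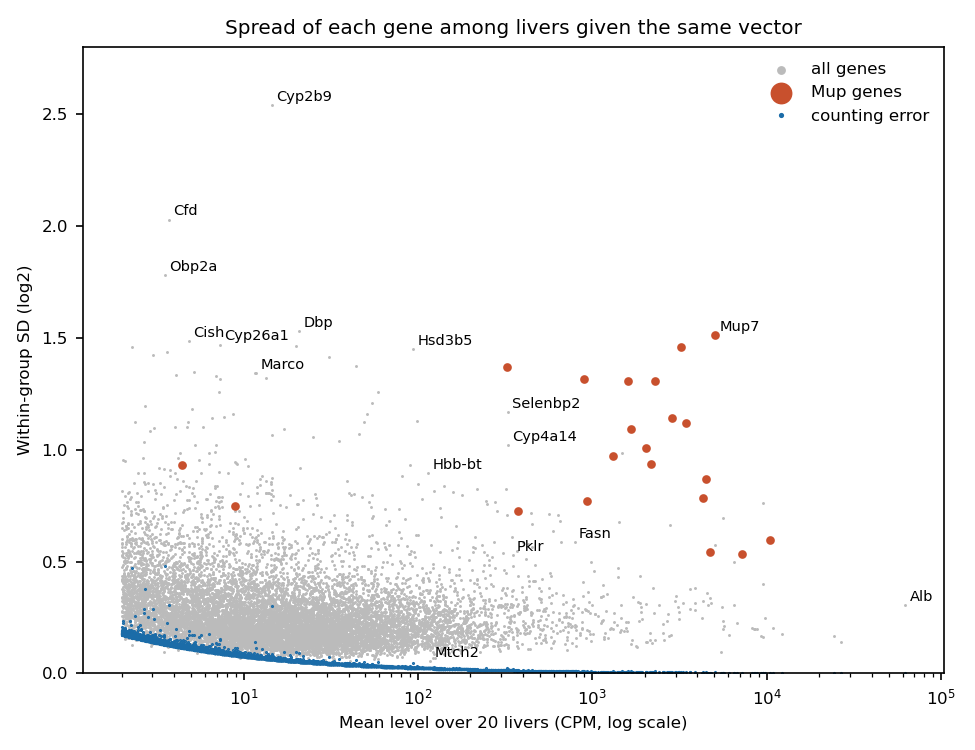
Within-group SD (log2) of each of 11815 genes (grey) against its mean level over 20 livers (CPM, log axis), with Mup genes in red and the SD that counting error alone gives in blue. Cyp2b9 is highest at 2.54, and the abundant Mup genes lie well above other genes of their level.

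The most variable gene was Cyp2b9, a cytochrome P450 that is higher in female than in male mouse liver, with an SD of 2.54. Cyp2b9 stood at 3.37, 8.16, 31.8, 13.8 and 28.2 CPM in the shLUC livers and at 30.3, 1.74, 0.17, 3.32 and 0.333 CPM in the shPKLR livers. Cyp2b9 then stood at 1.73, 0.102, 1.9, 1.26 and 0.244 CPM in the GFP livers and at 68.1, 0.619, 93.8, 1.58 and 0.499 CPM in the PKLR livers. Relative to its own mean, each group had high and low livers: PKLR replicates 1 and 3 held 68.1 and 93.8 CPM, and the other 3 PKLR livers under 1.6 CPM. The next were Cfd, which encodes the adipocyte product adipsin, with 2.03, the odorant-binding protein gene Obp2a with 1.78, and the clock output gene Dbp with 1.53. Obp2a fell to an SD of 1.4 without shPKLR replicate 5, where it was 0.181 CPM. Cfd ranged from 0.0462 CPM in GFP replicate 1 to 16.2 CPM in PKLR replicate 4. Adipoq, the defining marker of adipocytes, was at most 3.54 CPM, in shPKLR replicate 2, and was 0.0893 CPM in PKLR replicate 4. The summed level of the 8 adipocyte markers counted, most of it Car3, ran from 1311 CPM in GFP replicate 1 to 4595 CPM in shLUC replicate 2.

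Further genes of large spread were Cish, a feedback inhibitor of growth hormone signalling (SD 1.48), the retinoic acid hydroxylase gene Cyp26a1 (1.47), the macrophage elastase gene Mmp12 (1.46) and Hsd3b5 (1.45). Tff3, Chrna4, Hsd3b4, Acot3, Gadd45g, Ly6d, Fgf21, Scd3, Gpnmb and Selenbp2 lay between 1.17 and 1.42, together with the macrophage scavenger receptor gene Marco at 1.34. Leaving out 1 liver lowered some of these SDs, for Fgf21 and Scd3 to under 1. Fgf21, a hormone gene of fasting and amino acid stress, had an SD of 1.26 and 0.95 without shPKLR replicate 5, and Scd3 had 1.21 and 0.91 without shPKLR replicate 4. Dbp had 1.53 and 1.2 without shPKLR replicate 1, and Cyp26a1 1.47 and 1.15 without PKLR replicate 2.

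Among genes of 100 CPM or more on average, pseudogenes passed over, 12 of the 15 most variable were Mup genes. The other 3 were Selenbp2 (SD 1.17), Cyp4a14, a fatty acid hydroxylase gene induced through PPAR alpha (1.02), and the beta globin gene Hbb-bt (0.90). Mup7 was the most variable Mup gene, with an SD of 1.51. Mup7 stood at 15068, 7894, 2622, 2108 and 2346 CPM in the shLUC livers and at 3682, 18749, 3860, 10482 and 1561 CPM in the shPKLR livers. Mup7 then stood at 259.7, 910.5, 514, 235 and 1093 CPM in the GFP livers and at 1266, 9856, 384, 6968 and 11246 CPM in the PKLR livers. Livers that had received the same vector thus differed up to 29.3-fold in Mup7, between PKLR replicates 3 and 5 (log2 values with a prior count of 2). The 21 Mup genes measured had SDs between 0.54 and 1.51. All Mup genes together took between 2.36% and 16.7% of a library's counts. The Mup genes are near-identical copies on chromosome 4, and reads shared between them could have been counted at several of them, so single Mup genes are uncertain.

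At the other end, the least variable genes, among those of 20 CPM or more on average, were, in order of SD, Mtch2, Chtop, Ppil2, Ptcd3, Nrd1, Fbxo22, Nmt1 and Laptm4a. Mtch2, a mitochondrial carrier homolog gene, had an SD of 0.06 and ran from 106 to 132 CPM over all 20 livers. Its counting error alone was 0.02.

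By gene list, the highest median SDs were in genes that are higher in female liver (0.79, 11 measured), erythroid genes (0.76, 7 measured) and growth hormone dependent and male-biased genes (0.69, 31 measured). Of these, 9, 5 and 26 genes were among the 10% of all genes with the highest SD (10%, by construction). Lipid-associated macrophage genes (0.61), clock genes (0.60), lymphocyte genes (0.598, 3 measured), Kupffer cell genes (0.58), lipogenic genes (0.57), immediate early genes (0.57) and MHC class II genes (0.57) followed. For Kupffer cells, the resident macrophages of the liver, 13 of 14 genes were in that group, and all 6 MHC class II genes measured were. The median SD was 0.18 for 30 ribosomal protein genes, 0.20 for 30 nuclear genes of the respiratory chain and 0.31 for 17 hepatocyte identity genes, none of which were in it. Interferon response genes had a median of 0.49, which was 0.40 without shPKLR replicates 4 and 5. No gene of the neutrophil or skeletal muscle lists reached 2 CPM.

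**Figure D3:**
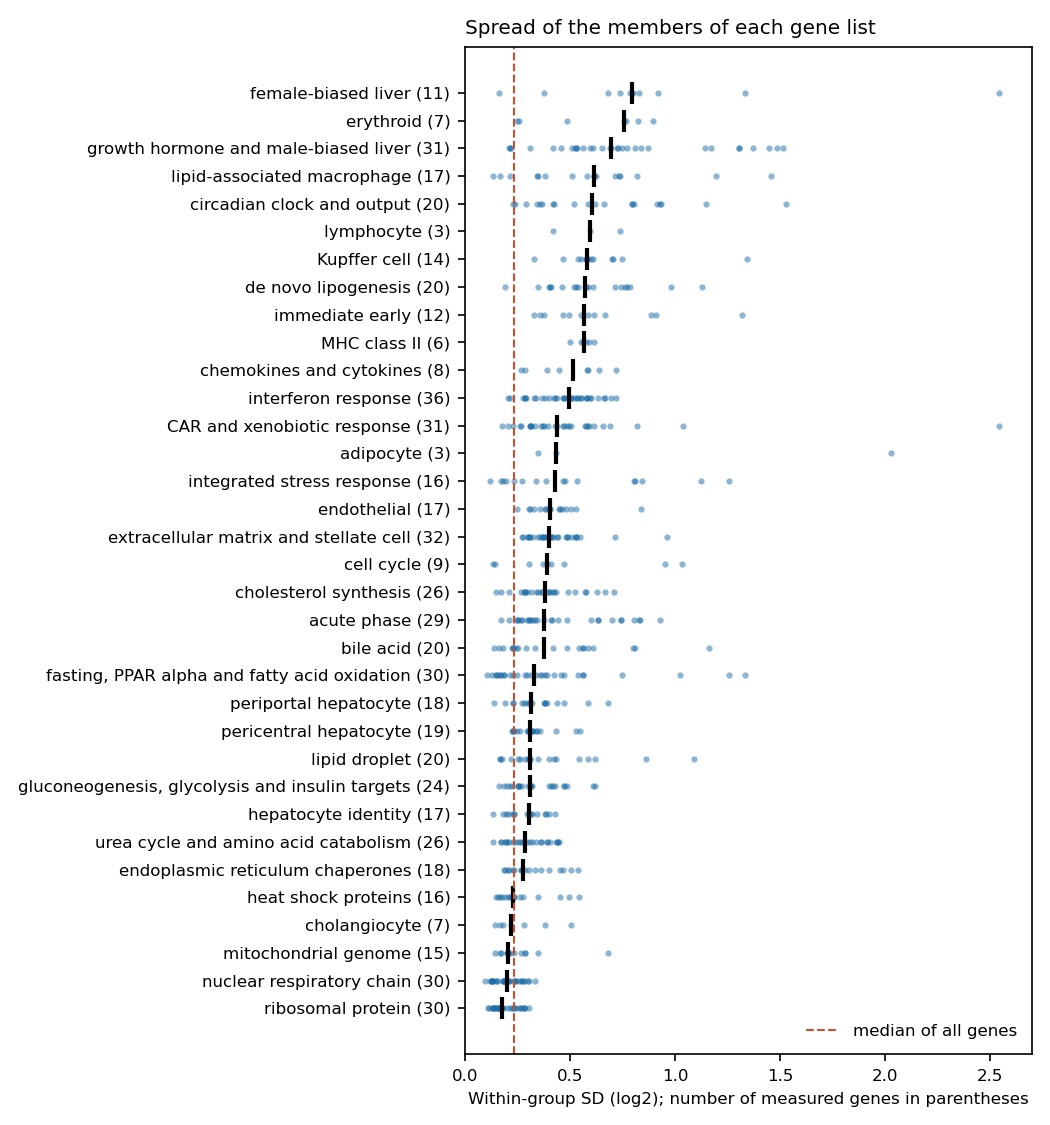
Within-group SD (log2) of each measured gene (points) of 34 gene lists, with the list's median as a black bar and the median of all genes as a dashed line. Female-biased, erythroid and male-biased liver genes are at the top, and ribosomal protein and respiratory chain genes at the bottom.

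Which genes vary together was asked by slopes and by clusters. In the first, the deviation of an anchor gene, chosen by name, was fitted to every other gene. The slope is the log2 change of a gene per log2 unit of the anchor among livers given the same vector, and slopes were called at an adjusted p of 0.05 over all genes. In the second, the 400 most variable genes, which have SDs of at least 0.58, were grouped by the correlation of their deviations.

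Hsd3b5, a steroid dehydrogenase gene of male liver that depends on growth hormone, was the anchor of the growth hormone genes. Hsd3b5 stood at 205, 162, 109, 59.1 and 62 CPM in the shLUC livers and at 87.5, 197, 121, 129.5 and 57.9 CPM in the shPKLR livers. Hsd3b5 then stood at 2.91, 20.8, 37.4, 11.7 and 93 CPM in the GFP livers and at 15.6, 178, 12.2, 104 and 210.4 CPM in the PKLR livers. Low livers stood out in the overexpression experiment, where GFP replicate 1 held 2.91 CPM, and PKLR replicates 1 and 3 held 15.6 and 12.2 CPM. Slopes on Hsd3b5 were called for 263 genes (2.23% of 11814), 130 positive (1.1%) and 133 negative (1.13%). Of 30 other male-biased genes, 17 had a positive slope that was called and none a negative one. Their median slope was 0.30, against 0.0022 for all genes. Mup genes, near-identical copies that may share reads, are among the 17, so these are not 17 separate signals. The called genes outside the Mup family were Susd4, Slco1a1, Cyp4a12b, Cyp2d9, Cyp4a12a, Cyp7b1, Serpina1e, C8a and Selenbp2. Hsd3b4 had a slope of 0.92 ± 0.07 (SE, adjusted p = 4.29e-07), with 16 of 20 livers on the side of that slope, and Mup15 had 0.78 ± 0.12 (adjusted p = 0.00108, 18 of 20 livers). Hsd3b4 belongs to the gene family of the anchor and lies near it on chromosome 3. Reads shared between Hsd3b4 and Hsd3b5 could raise the slope of Hsd3b4, which was not tested. The growth hormone dependent genes Susd4 (0.40), Cyp4a12a (0.38) and the bile acid and steroid hydroxylase gene Cyp7b1 (0.42) were also called.

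Of 11 female-biased genes, 5 had a negative slope on Hsd3b5 that was called, and all 11 slopes were below 0, with a median of -0.38. These 5 were Cyp2a4, Acot3, Cyp3a16, Cyp3a41b and Cyp2b9, the last with a slope of -1.39 ± 0.35 (adjusted p = 0.0433). Cyp3a16 and Cyp3a41b belong to the same family and may share reads. Gsta1, a glutathione transferase gene, had -0.61 ± 0.08 (adjusted p = 0.000548, 17 of 20 livers). Gsta1 stood at 5.53, 8.1, 17, 22.2 and 10.8 CPM in the shLUC livers and at 32.3, 8.64, 30.8, 15.7 and 36.6 CPM in the shPKLR livers. Gsta1 then stood at 212, 44.5, 47.3, 84.2 and 44.8 CPM in the GFP livers and at 42.3, 4.6, 25.6, 6.4 and 7.13 CPM in the PKLR livers. Gsta1 was highest, at 212 CPM, in GFP replicate 1, the liver with the least Hsd3b5. Of 31 genes of the CAR and xenobiotic response list, which also holds Cyp2b9 and Gsta1, 8 had a called negative slope and 1 a called positive one. Among 9 cell cycle genes, Mki67 and Cdc20 had called negative slopes, and 4 of 18 endoplasmic reticulum chaperone genes, Sdf2l1, Hyou1, Dnajb11 and Calr, had called positive ones. Cdc20 reached the limit of 2 CPM on average only through the GFP livers. Markers of several other cell types lay on the negative side. No slope was above 0 among 17 endothelial, 14 Kupffer cell and 6 MHC class II genes. Among 17 lipid-associated macrophage and 32 matrix genes, 2 and 2 slopes were above 0. Other lists were mixed, with slopes above 0 for 3 of 7 cholangiocyte, 2 of 7 erythroid, 1 of 3 lymphocyte and 2 of 3 adipocyte genes. The pancreatic acinar gene Cela1 had a called positive slope. Of 17 hepatocyte identity genes, 15 had slopes above 0, with Rbp4 and Serpina1a called. Sparc, Col3a1, Cd9, Mmp12 and Clec1b had called negative slopes, and the part of these cells in the slopes was not tested.

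The count of slopes on Hsd3b5 was 112 without GFP replicate 5, 116 without GFP replicate 1, 138 without PKLR replicate 1 and 526 without shPKLR replicate 4. In the knockdown livers alone 9 genes were called, all with a positive slope and all Mup genes or pseudogenes, and 271 were called in the overexpression livers alone. All 9 had a slope of the same sign in the overexpression livers, and 7 of them were called there. Since Mup copies may share reads, these 9 are not separate signals. Over all genes, 67.4% had slopes of the same sign in both. Hsd3b4, which may share reads with Hsd3b5, had slopes of 0.99 in the knockdown and 0.91 in the overexpression livers, and Gsta1 had -0.91 and -0.57.

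**Figure D4:**
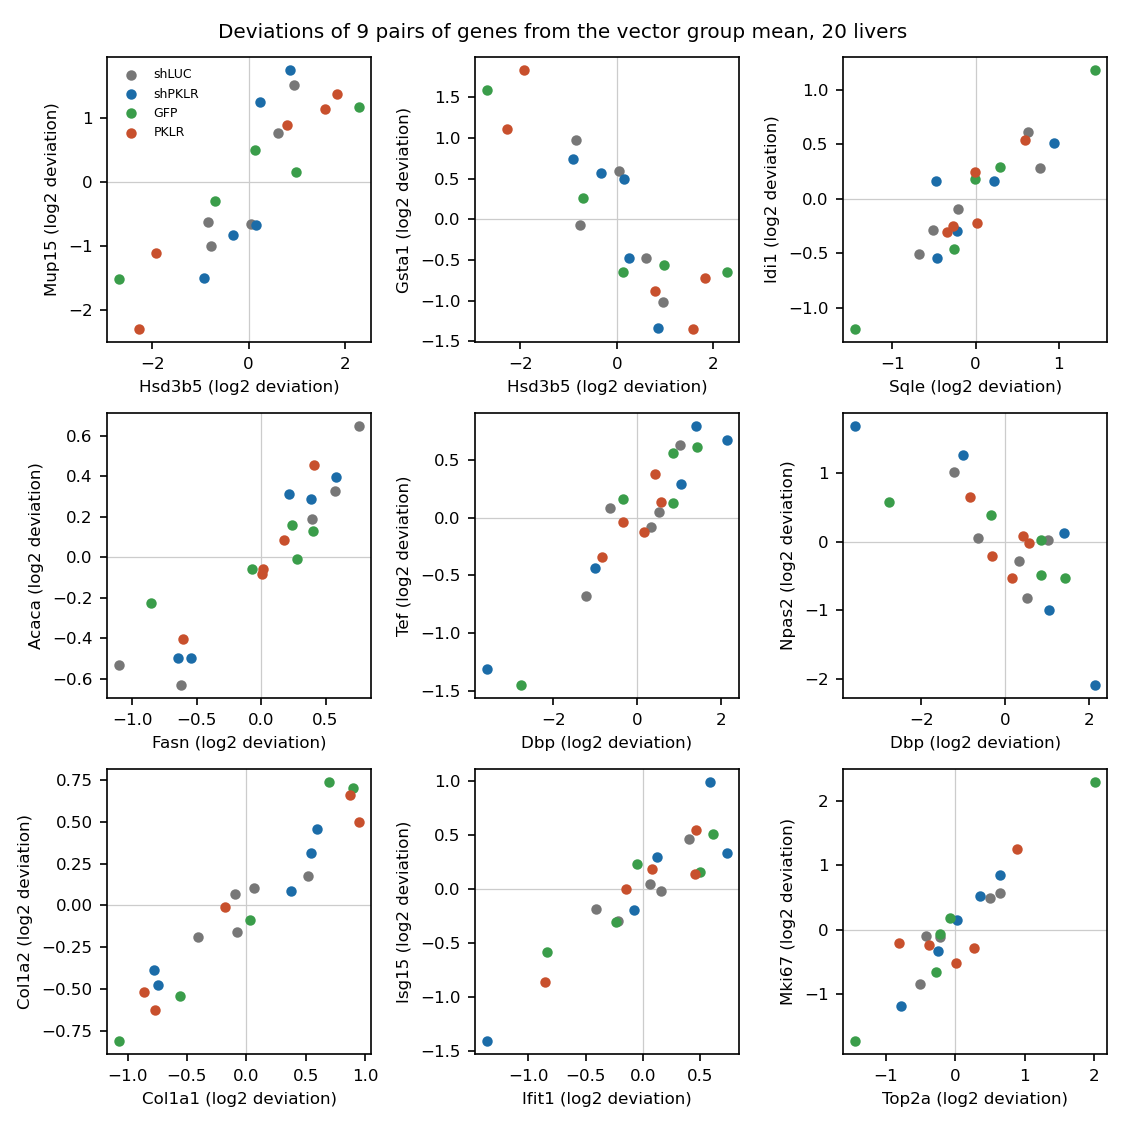
Deviation from the vector group mean (log2) of 9 pairs of genes, with the anchor on the horizontal axis, 1 point per liver (20), coloured by vector group. Gsta1 falls as Hsd3b5 rises, Npas2 falls as Dbp rises, and the other 7 pairs rise together.

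Of 19 lipogenic genes, which serve to turn sugar carbon into fatty acids, 5 rose with Fasn, the fatty acid synthase gene. Fasn stood at 592, 1669, 826, 1887 and 2151 CPM in the shLUC livers and at 510.3, 586, 251, 269 and 454 CPM in the shPKLR livers. Fasn then stood at 211, 462, 363, 450.3 and 504 CPM in the GFP livers and at 1020, 909, 1198, 912 and 594 CPM in the PKLR livers. The lowest livers of the shLUC, shPKLR, GFP and PKLR groups held 592, 251, 211 and 594 CPM, and the highest 2151, 586, 504 and 1198 CPM. Slopes on Fasn were called for 5 genes (0.0423% of 11814), all positive and all on the lipogenic list of 19 other genes, and all 19 had slopes above 0, with a median of 0.64. The 5 were Acaca and Acacb, the acetyl-CoA carboxylase genes, the elongase gene Elovl6, Pnpla3, a lipid droplet lipase gene, and Acly, the ATP citrate lyase gene. Acaca stood at 129.6, 214, 121, 235 and 294 CPM in the shLUC livers and at 108, 117, 62.9, 62.8 and 110.4 CPM in the shPKLR livers. Acaca then stood at 73.3, 85.4, 82.3, 96 and 93.9 CPM in the GFP livers and at 169.7, 151, 219, 153 and 121 CPM in the PKLR livers. Acaca had a slope of 0.63 ± 0.07 (adjusted p = 0.00037, 17 of 20 livers), and Pnpla3 had 1.46 ± 0.23 (adjusted p = 0.00969). Without shLUC replicate 1, 2 slopes were called. In the knockdown and in the overexpression livers alone none was, where the slopes of Acaca were 0.69 and 0.45.

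On Pklr itself, which belongs to the lipogenic list and whose level the vectors alter, 1 slope was called (0.00846% of 11814). This was Fam25c, with -0.75 ± 0.12 (adjusted p = 0.0342, 17 of 20 livers). The count was 0 without any one of shLUC replicates 3, 4 and 5, shPKLR replicates 2, 4 and 5, GFP replicates 4 and 5, PKLR replicate 3; and 2 without GFP replicate 2, and it was 0 with RLE size factors and with limma-voom. No lipogenic gene was called, while 17 of 19 had slopes above 0 and their median was 0.51, against 0.01 for all genes. At an unadjusted p under 0.05 there were 1693 slopes on Pklr over all genes, and DESeq2 called 7.

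Of 25 cholesterol synthesis genes, 8 rose with Sqle, the squalene epoxidase gene. Sqle stood at 28.2, 69.9, 31.8, 76.9 and 39.2 CPM in the shLUC livers and at 16.9, 28, 10.4, 12.5 and 10.6 CPM in the shPKLR livers. Sqle then stood at 13.6, 30.1, 11, 4.05 and 9.25 CPM in the GFP livers and at 52.3, 51.4, 42.6, 78 and 40.7 CPM in the PKLR livers. As a ratio, GFP livers spanned the widest range, from 4.05 CPM in replicate 4 to 30.1 CPM in replicate 2. Slopes were called for 10 genes (0.0846% of 11814), all positive. Of 25 other cholesterol synthesis genes, 8 were called: Cyp51, Idi1, Hmgcs1, Msmo1, Nsdhl, Fdft1, Pmvk and Fdps, which encode enzymes of the same pathway. Of the 25 slopes, 24 were above 0, with a median of 0.35. Idi1 stood at 79, 171, 92.1, 137 and 105 CPM in the shLUC livers and at 53.6, 68.1, 53.6, 38.8 and 32.8 CPM in the shPKLR livers. Idi1 then stood at 70.9, 131, 65.8, 25.3 and 42.1 CPM in the GFP livers and at 95.7, 132, 93.5, 162 and 90 CPM in the PKLR livers. Idi1, the isopentenyl diphosphate isomerase gene, had a slope of 0.74 ± 0.08 (adjusted p = 5.28e-05), and Cyp51, the lanosterol demethylase gene, had 0.56 ± 0.05 (adjusted p = 1.19e-05, 17 of 20 livers). The count was 3 without GFP replicate 2 and 5 without GFP replicate 4. No slope was called in the knockdown livers alone and 3 were in the overexpression livers alone. For Cyp51 these livers gave slopes of 0.50 and 0.61.

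Of 35 interferon response genes, 13 rose with Ifit1, which encodes an antiviral RNA-binding protein. A promoter element shared by such genes, the interferon-stimulated response element (ISRE), is bound by the STAT and IRF factors. The letters searched were GAAA, 2 further bases of any kind and GAAA again, on both strands. The window searched ran from 250 bases before the start of a gene to 50 after it. The promoter table (RefSeq, GRCm38.p6) holds 27025 genes, including genes not measured in these livers, and 3.99% of them held the letters. Of the 20 named genes with a called positive slope on Ifit1, 14 had a promoter there, and 9 of these (64.3%) held the letters. The 250 bases before the start are shown for the anchor Ifit1 itself and, of these genes, for Ifit3 and Isg15. They let the repeated element be seen, with the matches in capitals.
Ifit1 (chr19:34640639-34640888, plus strand): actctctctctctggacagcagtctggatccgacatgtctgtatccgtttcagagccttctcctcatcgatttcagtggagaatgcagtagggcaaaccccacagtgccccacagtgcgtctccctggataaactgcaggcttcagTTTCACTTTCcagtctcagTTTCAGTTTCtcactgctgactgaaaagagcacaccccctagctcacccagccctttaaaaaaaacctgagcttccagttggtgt
Ifit3 (chr19:34583279-34583528, plus strand): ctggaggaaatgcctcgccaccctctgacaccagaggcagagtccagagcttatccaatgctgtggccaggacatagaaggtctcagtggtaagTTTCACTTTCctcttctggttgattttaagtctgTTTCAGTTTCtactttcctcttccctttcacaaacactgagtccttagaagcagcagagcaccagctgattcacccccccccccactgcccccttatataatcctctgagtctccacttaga
Isg15 (chr4:156200819-156201068, minus strand): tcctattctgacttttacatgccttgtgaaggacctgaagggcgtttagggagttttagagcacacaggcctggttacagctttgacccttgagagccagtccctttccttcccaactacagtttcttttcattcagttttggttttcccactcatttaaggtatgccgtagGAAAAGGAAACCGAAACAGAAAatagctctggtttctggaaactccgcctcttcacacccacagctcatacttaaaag

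Ifit1 stood at 19, 16, 10.8, 15 and 12.3 CPM in the shLUC livers and at 19.8, 17.3, 30.4, 27.4 and 7.08 CPM in the shPKLR livers. Ifit1 then stood at 28.2, 19.2, 16.9, 11.1 and 30.6 CPM in the GFP livers and at 52.7, 40.4, 34.6, 21.1 and 52.9 CPM in the PKLR livers. Low livers were shPKLR replicate 5, at 7.08 CPM, and PKLR replicate 4, at 21.1 CPM. Isg15, a ubiquitin-like protein gene, followed. Isg15 stood at 14.1, 10.1, 8.94, 10.5 and 8.27 CPM in the shLUC livers and at 20.7, 14.8, 21.2, 33.6 and 6.32 CPM in the shPKLR livers. Isg15 then stood at 20.6, 21.7, 14.9, 12.3 and 26.3 CPM in the GFP livers and at 33.1, 34.3, 30.1, 16.6 and 44 CPM in the PKLR livers. Slopes on Ifit1 were called for 21 genes (0.178% of 11814), all positive, and 13 of 35 other interferon response genes were among them. All 35 slopes were above 0, with a median of 0.59. Ifit3 had 0.74 ± 0.07 (adjusted p = 3.14e-05, 17 of 20 livers) and Isg15 0.91 ± 0.10 (adjusted p = 0.000144, 18 of 20 livers). The isopeptidase gene Usp18 had 0.80 ± 0.11 (adjusted p = 0.00172). Without shPKLR replicate 5, 3 slopes were called, and without shPKLR replicates 4 and 5, 4 were. In the overexpression livers alone 3 were called and in the knockdown livers alone none; Isg15 had slopes of 0.78 and 1.01 there.

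Of 19 clock genes, 8 moved with Dbp, a clock output gene whose RNA swings widely over the day. Dbp stood at 6.05, 17.9, 29, 20.5 and 9.09 CPM in the shLUC livers and at 1.3, 33.1, 7.94, 42.2 and 70.6 CPM in the shPKLR livers. Dbp then stood at 1.09, 13.9, 13.9, 6.1 and 20.9 CPM in the GFP livers and at 18.4, 31.2, 12.9, 34.3 and 25.9 CPM in the PKLR livers. The lowest livers were GFP replicate 1, at 1.09 CPM, and shPKLR replicate 1, at 1.3 CPM, and the highest was shPKLR replicate 5, at 70.6 CPM. Slopes on Dbp were called for 179 genes (1.52% of 11814), 125 positive (1.06%) and 54 negative (0.457%). Of 19 other clock genes, 5 rose with Dbp: Tef, a factor of the same family, Per3, a period gene, Nr1d2 and Nr1d1, which encode the REV-ERB repressors, and Usp2. The 3 that fell as Dbp rose were Npas2 and Arntl, which encode partners of the activating arm of the clock, and the repressor gene Nfil3.

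Tef had a slope of 0.41 ± 0.04 (adjusted p = 1.62e-05, 16 of 20 livers), and Npas2 had -0.44 ± 0.08 (adjusted p = 0.0188, 15 of 20 livers). Tef stood at 33.4, 50.4, 82.8, 55.2 and 56.6 CPM in the shLUC livers and at 30.2, 91.8, 55.5, 130.1 and 119 CPM in the shPKLR livers. Tef then stood at 17.7, 52.7, 71.1, 53.9 and 74.1 CPM in the GFP livers and at 63.5, 84.4, 51.3, 71.4 and 59.9 CPM in the PKLR livers. Npas2 stood at 9.71, 3.91, 4.88, 2.69 and 4.99 CPM in the shLUC livers and at 6.89, 1.03, 5.12, 2.3 and 0.454 CPM in the shPKLR livers. Npas2 then stood at 4.06, 2.74, 1.9, 3.56 and 1.84 CPM in the GFP livers and at 1.62, 1.97, 2.97, 1.85 and 1.28 CPM in the PKLR livers. shPKLR replicate 5, the highest liver for Dbp, was the lowest of the 20 for Npas2. Outside the clock list, Cyp3a41a and Cyp3a41b, near-identical genes that are higher in female liver, had slopes of -0.43 and -0.44, and Srebf1, a lipogenic transcription factor gene, had 0.27 (adjusted p = 0.0432). Single livers moved the count: it was 7 without GFP replicate 1, 8 without shPKLR replicate 1, 71 without GFP replicate 5, 93 without GFP replicate 3, 96 without PKLR replicate 1, 102 without PKLR replicate 3, 109 without shPKLR replicate 2, 110 without GFP replicate 2, 302 without shPKLR replicate 3, 419 without shLUC replicate 1, 439 without shPKLR replicate 4 and 503 without shPKLR replicate 5. In the knockdown livers alone none was called and in the overexpression livers 148; Tef had slopes of 0.38 and 0.47 there.

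The clock factors bind the E-box CACGTG, and factors such as DBP and TEF bind the D-box, searched as TTANGTAA. Of 98 named genes with a called positive slope on Dbp and a promoter entry, 18 (18.4%) held the E-box and 3 (3.06%) the D-box. Over all genes of the promoter table the shares were 8.09% and 2.72%. Of the 11815 genes measured, 8518 have an entry in that table, and shares over these alone were not taken. For the genes with negative slopes, 2 of 25 held the E-box and none the D-box. Motifs were also searched for other anchors. The STAT element (TTC, 3 further bases, GAA) was in 7.87% of 89 promoters of Hsd3b5-positive genes against 9.55% of all. The cell cycle element TTTGAA was in 26.3% of 95 promoters of Top2a-positive genes against 20.2%. A sterol element (TCAC, 1 further base, CCAC) was in 0 of 5 Fasn-positive and 1 of 6 Sqle-positive promoters, against 1.44% of all. The windows of Tef, which has 2 starts, and of Per3 show the elements in capitals, the E-box in Tef and the D-box in Per3.
Tef, first start (chr15:81802423-81802672, plus strand): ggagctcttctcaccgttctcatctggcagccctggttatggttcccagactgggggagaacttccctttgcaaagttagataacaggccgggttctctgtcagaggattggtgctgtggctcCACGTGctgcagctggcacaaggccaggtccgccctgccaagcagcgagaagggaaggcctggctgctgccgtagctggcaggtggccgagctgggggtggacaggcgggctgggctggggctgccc
Tef, second start (chr15:81811164-81811413, plus strand): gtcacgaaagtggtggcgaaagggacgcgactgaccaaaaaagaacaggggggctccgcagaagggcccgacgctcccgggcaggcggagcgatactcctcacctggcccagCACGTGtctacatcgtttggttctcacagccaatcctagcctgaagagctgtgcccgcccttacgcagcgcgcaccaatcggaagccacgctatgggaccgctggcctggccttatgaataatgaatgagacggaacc
Per3 (chr4:151044666-151044915, minus strand): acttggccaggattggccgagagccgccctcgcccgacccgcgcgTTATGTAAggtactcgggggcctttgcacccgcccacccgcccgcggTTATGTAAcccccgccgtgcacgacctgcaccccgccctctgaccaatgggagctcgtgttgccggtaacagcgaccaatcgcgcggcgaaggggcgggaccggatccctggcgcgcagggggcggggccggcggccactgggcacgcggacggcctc

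Of 31 matrix and stellate cell genes, 7 rose with Col1a1, which encodes a chain of type I collagen made by stellate cells. Col1a1 stood at 7.34, 6.54, 6.64, 10.1 and 5.27 CPM in the shLUC livers and at 5.56, 5.44, 13.7, 12.1 and 14.2 CPM in the shPKLR livers. Col1a1 then stood at 42, 48.2, 12.3, 26.5 and 17.6 CPM in the GFP livers and at 19.5, 5.83, 9.41, 20.6 and 6.24 CPM in the PKLR livers. The GFP livers ran from 12.3 CPM in replicate 3 to 48.2 CPM in replicate 2. Slopes on Col1a1 were called for 44 genes (0.372% of 11814), 39 positive (0.33%) and 5 negative (0.0423%). Of 31 other matrix and stellate cell genes, 7 had a called positive slope: Col1a2, Col6a3, Col6a1, Col3a1, Col6a2, Mmp2 and Loxl1. Col1a2 stood at 9.5, 9.27, 7.9, 9.97 and 7.72 CPM in the shLUC livers and at 8.02, 8.52, 13.9, 11.9 and 15.4 CPM in the shPKLR livers. Col1a2 then stood at 39.9, 38.9, 13.6, 22.5 and 16.4 CPM in the GFP livers and at 18.8, 8.31, 11.8, 16.9 and 7.7 CPM in the PKLR livers. Col1a2, the partner chain, had a slope of 0.69 ± 0.06 (adjusted p = 6.66e-07, 18 of 20 livers). The lipid-associated macrophage genes Mmp12 and Cd63 were also called. The genes with negative slopes were Srgap3, Tiam2, Cyp2r1, Cyp2c50 and Cyp2c54. The count was 17 without any one of GFP replicate 2, PKLR replicate 1; 23 without PKLR replicate 5; 25 without any one of shLUC replicate 4, GFP replicate 5; 28 without any one of shLUC replicate 3, GFP replicate 3; and 101 without shPKLR replicate 4. In the overexpression livers alone 19 slopes were called and in the knockdown livers alone none. For Col1a2 these livers gave slopes of 0.75 and 0.55.

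Gpnmb marks lipid-laden macrophages. Gpnmb stood at 0.139, 0.222, 0.409, 0.625 and 0.199 CPM in the shLUC livers and at 0.141, 0.373, 2.34, 0.253 and 0.635 CPM in the shPKLR livers. Gpnmb then stood at 16.9, 15.4, 3.65, 7.82 and 1.46 CPM in the GFP livers and at 1.91, 0.236, 0.688, 0.417 and 0.499 CPM in the PKLR livers. Gpnmb reached the limit of 2 CPM on average only through the GFP livers, as did Mmp12, which stood at 20.4, 8.59, 1.09, 6.37 and 0.868 CPM there and at most at 1.67 CPM in the other livers. Mmp12 was not fitted in the knockdown livers alone. Slopes on Gpnmb were called for 2 genes (0.0169% of 11814), Ly6d, with 0.91 ± 0.14 (adjusted p = 0.0225, 18 of 20 livers), and Mmp12, with 1.02 ± 0.17 (adjusted p = 0.0314). The count was 0 without any one of shLUC replicate 4, shPKLR replicate 4, GFP replicates 1, 3 and 5, PKLR replicates 1 and 2; 1 without any one of shLUC replicate 5, shPKLR replicate 2, GFP replicates 2 and 4; and 4 without any one of shPKLR replicate 5, PKLR replicate 4. In the overexpression livers alone 168 slopes were called. Of 143 such genes also fitted in the knockdown livers, 72 had a slope of the same sign there. Over all genes fitted in both, 52.8% had slopes of the same sign.

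Lcn2, an acute phase gene, moved with the serum amyloid genes Saa1 and Saa2. Lcn2 ran from 3.9 CPM in shPKLR replicate 5 to 40.1 CPM in GFP replicate 1. Saa1 was highest in shPKLR replicate 3, at 359 CPM, where Lcn2 was 20.8 CPM, the highest of that group. The 2 called slopes (0.0169% of 11814) were 0.83 ± 0.11 for Saa2 (adjusted p = 0.00173, 17 of 20 livers) and 0.94 ± 0.13 for Saa1 (adjusted p = 0.00246, 17 of 20 livers). Of 28 other acute phase genes, 26 had slopes above 0. Without shPKLR replicate 3 no slope was called, and without shPKLR replicate 5, 6 were. Saa1 and Saa2 are close copies, so their separate values are uncertain.

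Top2a, a topoisomerase gene of dividing cells, had a mean of only 1.86 CPM, below the limit set for the genes described. Top2a stood at 0.591, 0.73, 0.629, 1.37 and 1.24 CPM in the shLUC livers and at 1.33, 0.466, 0.848, 1.08 and 0.696 CPM in the shPKLR livers. Top2a then stood at 13.2, 2.67, 2.78, 3.06 and 1.17 CPM in the GFP livers and at 1.84, 0.737, 1.18, 0.983 and 0.535 CPM in the PKLR livers. GFP replicate 1 stood apart from all other livers, with 13.2 CPM of Top2a and 47.8 CPM of Mki67, the gene of the proliferation antigen Ki-67, whose next highest liver held 11.1 CPM. Slopes on Top2a were called for 285 genes (2.41% of 11815), 134 positive (1.13%) and 151 negative (1.28%). Mki67 had 1.12 ± 0.09 (adjusted p = 2.86e-06, 17 of 20 livers), Tacc3 0.76 ± 0.09 and Cdc20 1.15 ± 0.15, and Aurka was also called (12 of 20 livers). Tacc3 and Cdc20 reached the limit of 2 CPM on average only through the GFP livers, and were not fitted in the knockdown livers alone. Cdc20 was 26.3 CPM in GFP replicate 1 and at most 1.76 CPM outside the GFP livers. Hsd3b5 had -1.49 ± 0.24 (adjusted p = 0.00624), and 6 of 31 male-biased genes had called negative slopes. Female-biased genes had slopes above 0 in 11 of 11 cases, 3 of them called: Cyp3a41b, Cyp3a41a and Cyp3a16. These 3 belong to the same family and may share reads, so they are not 3 separate signals. Markers of several other cell types also rose with Top2a. Slopes were above 0 for 14 of 14 Kupffer cell genes (Clec1b called), 17 of 17 endothelial genes (Fcgr2b and Oit3 called) and all 6 MHC class II genes. They were also above 0 for 16 of 17 lipid-associated macrophage genes (Lgals3 and Cd9 called) and 30 of 32 matrix genes (Sparc called). Other lists were mixed, with 5 of 7 cholangiocyte, 3 of 7 erythroid, 2 of 3 lymphocyte and 1 of 3 adipocyte slopes above 0. The pancreatic acinar gene Cela1 had a called negative slope. So did 4 of 17 hepatocyte identity genes, Serpina1a, Cebpa, Serpina1b and Rbp4. The part of the other cell types in the slopes was not tested. The count was 3 without GFP replicate 1, 17 without GFP replicate 5, 74 without shPKLR replicate 2, 114 without PKLR replicate 1, 137 without shPKLR replicate 1, 149 without shLUC replicate 1, 185 without shLUC replicate 5 and 866 without shPKLR replicate 4. None was called in the knockdown livers alone.

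Asns, the asparagine synthetase gene, an ATF4 target of the integrated stress response, gave the most slopes. Asns stood at 0.244, 1.02, 0.441, 0.781 and 0.419 CPM in the shLUC livers and at 0.79, 1.93, 3.6, 0.333 and 10.3 CPM in the shPKLR livers. Asns then stood at 3.51, 9.68, 3.93, 2.08 and 3.61 CPM in the GFP livers and at 1.3, 0.796, 0.385, 1.28 and 1.18 CPM in the PKLR livers. shPKLR replicate 5 was highest, at 10.3 CPM, and shPKLR replicate 4 among the lowest, at 0.333 CPM. Slopes were called for 1263 genes (10.7% of 11814), 716 positive (6.06%) and 547 negative (4.63%). The desaturase gene Fads2 had 0.56 ± 0.07 (adjusted p = 0.00119, 16 of 20 livers), and the carnitine transferase gene Cpt1a had 0.27 ± 0.05. Of 15 other genes of the stress response list, Fgf21 (14 of 20 livers) and Atf5 (11 of 20) rose and Ddit3 (12 of 20) fell with Asns. The median slope of the 15 was -0.01. Ddit3 was highest in shPKLR replicate 4, at 14 CPM. In the overexpression livers alone the slopes of Atf5 and Ddit3 were 0.038 and 0.042. No slope was called without shPKLR replicate 5, and 9 were called without shPKLR replicate 4, the liver of 167891680 counts. A single slope was called with the length slope of each library as a covariate, and 7 with the library total as a covariate. In the overexpression livers alone none was called, and 1924 were in the knockdown livers alone. Of 1897 genes called there and fitted in both experiments, 766 had a slope of the same sign in the overexpression livers. Over all genes fitted in both, 44.9% had slopes of the same sign, so the slopes called in the knockdown livers did not carry over. By single liver, the count was 0 without shPKLR replicate 5, 9 without shPKLR replicate 4, 39 without shPKLR replicate 3, 87 without shLUC replicate 2, 670 without shLUC replicate 3, 735 without PKLR replicate 1, 745 without shPKLR replicate 1, 2058 without shLUC replicate 4, 2162 without GFP replicate 2 and 2495 without PKLR replicate 3.

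Cyp2b10, the standard target of the xenobiotic receptor CAR, had a mean of 1.41 CPM, under the limit set here. Acnat2, an acyltransferase gene, was the only gene called on it (0.00846% of 11815), with a slope of 0.43 ± 0.07 (adjusted p = 0.035, 15 of 20 livers), and the count was 0 without any one of shLUC replicates 2, 3, 4 and 5, shPKLR replicates 2 and 4, GFP replicates 1, 2 and 4, PKLR replicates 1, 2, 3 and 5; and 2 without shPKLR replicate 3. None of 31 CAR and xenobiotic response genes was called, and 27 had slopes above 0.

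Of the 400 most variable genes, 213 fell into 10 clusters of at least 8 genes. Values for a cluster are means of its genes' deviations on the log2 scale, and their correlations (Pearson, 20 livers that share libraries across genes) describe the genes chosen and are not tests. The largest cluster, with 65 genes and a mean pairwise correlation of 0.81, was led by C1qb, Cd300a, Cybb, Tyrobp and Cd68, genes of macrophages and other myeloid cells. It also held the Kupffer cell genes Clec4f, Marco, Folr2, Cd5l and Adgre1 and the MHC class II genes H2-Aa and H2-DMb1. C1qb stood at 26.8, 39.7, 21.6, 26.9 and 26.9 CPM in the shLUC livers and at 44.5, 21.2, 37.9, 51.8 and 38.2 CPM in the shPKLR livers. C1qb then stood at 57.5, 47, 16.9, 47.6 and 17.7 CPM in the GFP livers and at 35.5, 22, 36.4, 16.5 and 46.5 CPM in the PKLR livers. The mean of the 65 genes was highest in GFP replicate 1, at 0.999, and lowest in GFP replicate 5, at -0.98. The summed level of the 14 Kupffer cell genes ran from 202 CPM in PKLR replicate 4 to 621 CPM in GFP replicate 1.

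The second cluster held 34 genes, 18 of them Mup genes, together with Hsd3b5, Hsd3b4, Cyp4a12a, Cyp4a12b, Cyp7b1, Selenbp2 and Susd4, and 20 lie on chromosome 4. Its mean correlation was 0.78, and the mean deviation ran from -1.56 in PKLR replicate 3 to 1.12 in shLUC replicate 1. Reads shared among the Mup copies, or between Hsd3b4 and Hsd3b5, could raise that correlation, which was not tested. The fourth cluster of 18 genes joined Mmp12, Uap1l1, Ly6d, Gpnmb, Col1a1 and Cd63 with the metallothionein genes Mt1 and Mt2 and the cyclin gene Ccnd1. The seventh, of 9 genes, held Cyp2c38, Cyp2b9, Acnat2, the lipid receptor genes Vldlr and Cd36, and was highest in PKLR replicate 3, at 1.33. Its mean in shPKLR replicate 1 was 1.32. The eighth, of 8 genes, held the lipid droplet gene Cidec and Apoa4. The ninth, of 8 genes, held Cyp2c50, Cyp2c54, Cyp2c37 and the nuclear receptor gene Nr0b2, and was lowest in shPKLR replicate 5, at -1.26. GFP replicate 1 was close to it, at -1.23. The tenth, of 8 genes, held the interferon response genes Gbp6, Ifit1, Isg15, Ifi44 and Oas1a, and was also lowest in shPKLR replicate 5, at -1.22. PKLR replicate 4 followed, at -1.11.

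The other 3 clusters, of 33, 16 and 14 genes, took their largest share from shPKLR replicate 4, which held 48.3%, 31.2% and 26.3% of their sums of squares. The first of them held Sntb1, Pdpr and Vcl with the desaturase genes Scd2, Scd3 and Scd4, and was lowest in that liver, at -1.73. Its mean correlation was 0.265 among the overexpression livers alone. The last of them held Fads2, Asns, Noct and Plin4, with -1.36 in shPKLR replicate 4 and 1.26 in shPKLR replicate 5. Without shPKLR replicates 4 and 5, the mean correlations of the 3 clusters were 0.554, 0.682 and 0.598, against 0.765, 0.769 and 0.703 with them. With the library of shPKLR replicate 4 thinned to the median total of the other 19, 233 of the 400 genes were clustered, and 196 of them were among the 213. With the slope on transcript length removed from every library, 213 genes were clustered, of which 182 were among those reported.

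**Figure D5:**
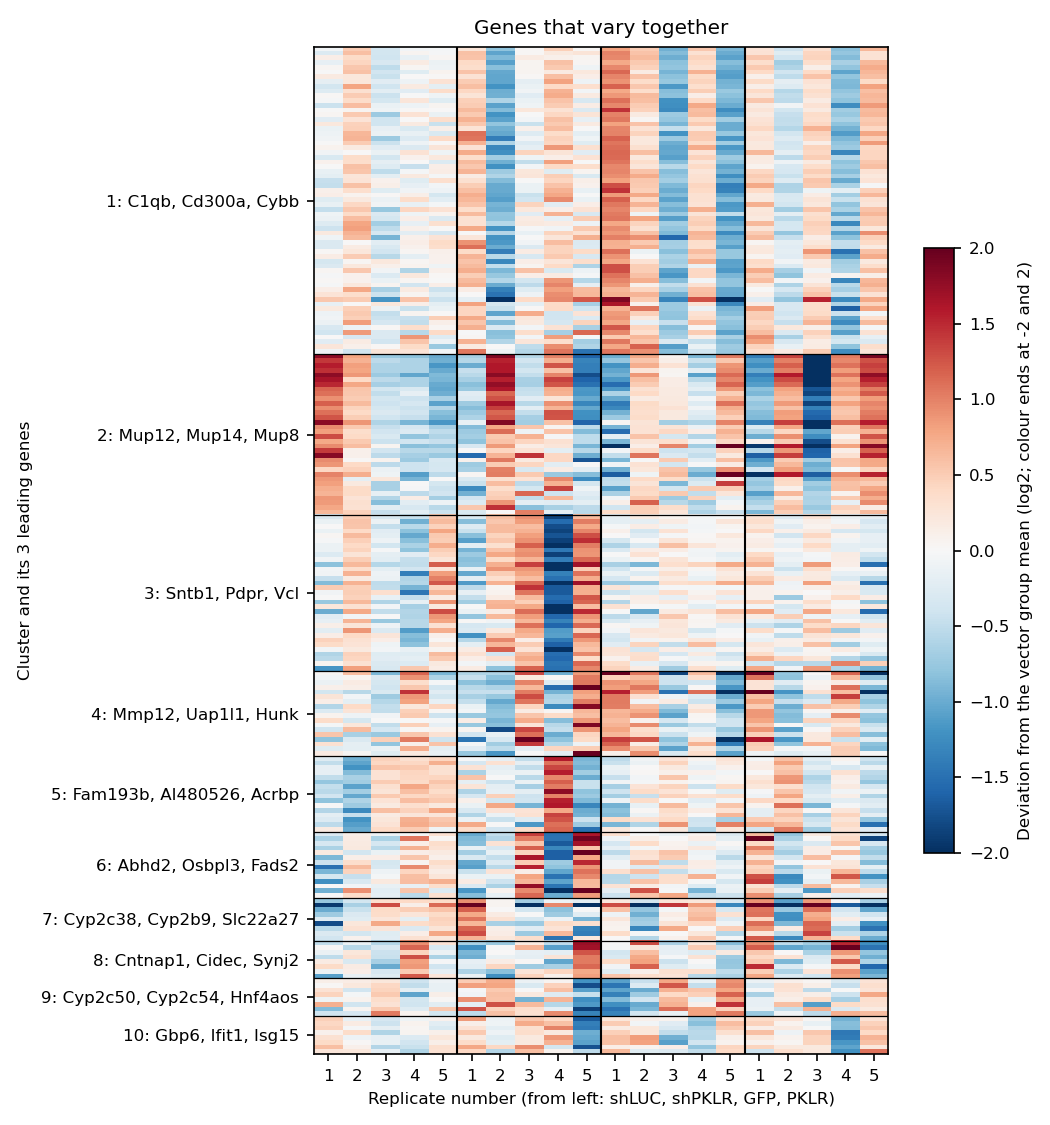
Deviation from the vector group mean (log2, colour) of 213 genes (rows) in 10 clusters, in 20 livers (columns, by group and replicate). The first cluster is high in GFP replicate 1, the second low in PKLR replicate 3, and the third low in shPKLR replicate 4.

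Clusters made in the livers of 1 experiment were also read in the livers of the other. Of 13 clusters made in the knockdown livers, 5 had a mean correlation over 0.3 in the overexpression livers, where all 400 genes averaged 0.02. Of 10 made in the overexpression livers, 4 had one in the knockdown livers, where the 400 genes averaged 0.05. The Mup clusters had 0.73 and 0.63 in the other livers, values that reads shared among Mup copies could raise. A cluster of 9 genes made in the knockdown livers and led by Cyp7b1, Pitx3 and Cyp4a12b had 0.72. The macrophage clusters had 0.93, for the 8 genes made in knockdown livers and led by Wfdc17, Siglece and C3ar1, and 0.59, for the 132 made in overexpression livers and led by Ctss, Cd300a and Cybb. The cluster with Usp2, Per3, Por and Dbp, made in the knockdown livers, had 0.12, and that with Scd2, Scd3, Scd1 and Scd4, made in the overexpression livers, had 0.25.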

How the data were processed

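RNA of 20 whole livers was sequenced from stranded total RNA libraries, per the labels' protocols. The authors deposited 2 tables of whole-number counts per gene, 1 per experiment, not normalized; the submitters' processing notes name HISAT2, DESeq2, GRCm38 and mm10, without versions of the tools. The program that counted reads, and whether it used strand, is not given in the sources used here. Counts of Gm28661, a nuclear copy, were 1 to 1.02 times those of mt-Co2, so reads that fit several places may have been counted more than once. No value column was left without a sample (0).

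The tables were joined on gene ID (27052 and 26286 genes, 25238 in both, 25060 matched to a symbol). Log2 CPM (TMM, prior count 2) less the mean of the liver's vector group gave the deviations, pooled into an SD with 16 degrees of freedom. Slopes on 12 anchors came from edgeR 4.0.16 (quasi-likelihood, robust, vector group as a term, 15 residual degrees of freedom) in R 4.3.3, with Benjamini-Hochberg adjustment over all genes; every adjusted p printed is edgeR's, and an SE is the slope divided by the square root of F. Clusters used average linkage joined above a correlation of 0.6. Alternatives were RLE factors, other filters and prior counts, DESeq2 1.42.0, limma-voom (limma 3.58.1), covariates, a replicate block, each library left out, and, chosen after seeing the data, each experiment alone, shPKLR replicates 4 and 5 left out, and length slopes. The steps were tested on simulated counts.

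The genes named were the 25 of largest SD (and 15 among those of at least 100 CPM), the 8 of smallest SD, the anchors and up to 5 called genes per direction and 4 of their list, the 2 most variable members of each of 38 lists, and leading or listed cluster genes; other members were chosen after their values were seen. Members and lists were chosen with earlier results of these data known. Nothing in the labels says that the livers of a group are other than separate mice, so the spread includes both biological and technical differences.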

Additional observations from a re-analysis of the deposited data

Results flagged for a closer look

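Of 156 groups of 5 livers examined for a liver far from the other 4 (the anchors, the most variable genes and 5 library measures), 7 (4.49%) had one, and chance gives about 1 in 20. PKLR replicate 4 was low for Pklr, at 379 CPM against 769 to 924 CPM. shPKLR replicate 5 was high for Fgf21, at 24.9 CPM against 1.37 to 1.93 CPM, and low for Cyp26a1, at 1.39 CPM against 4.07 to 5.4 CPM. shLUC replicate 1 was high for Gadd45g, a stress gene, at 39.1 CPM against 3.91 to 7.52 CPM. shLUC replicate 4 was high for Ly6d, at 5.53 CPM against 1.33 to 1.7 CPM. The library totals of shLUC replicate 5, 45413803 counts, and of shPKLR replicate 4, 167891680 counts, were above those of their groups. Over all genes and groups, 6.38% had such a liver; by library this was most often shPKLR replicate 4 (6.62% of genes) and GFP replicate 1 (4.6%).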

How the results depend on the processing

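The count of genes with an SD of at least 1 stayed within 1.5 times the reported 58 under every alternative run, and so did the count of 213 clustered genes, but not all the same genes: of the 213, 111 were clustered among genes of at least 5 CPM, 134 without shPKLR replicates 4 and 5, 144 with the replicate block and at least 136 when 1 library was left out. Counts of called slopes moved more. Only those that moved by more than 1.5 times are given here, as the number of slopes called on each anchor. With RLE size factors there were 0 on Pklr. With the filterByExpr rule alone there were 498 on Top2a, 395 on Hsd3b5. DESeq2 called 7 on Pklr, 27 on Fasn, 22 on Sqle, 779 on Top2a, 139 on Col1a1, 36 on Gpnmb, 10 on Lcn2, 48 on Ifit1, 574 on Dbp, 592 on Hsd3b5, 9 on Cyp2b10, 2265 on Asns. limma-voom called 0 on Pklr, 3 on Fasn, 300 on Dbp. With the library total as a covariate there were 0 on Pklr, 8 on Fasn, 721 on Top2a, 78 on Col1a1, 0 on Gpnmb, 385 on Dbp, 493 on Hsd3b5, 0 on Cyp2b10, 7 on Asns. With the length slope as a covariate there were 0 on Pklr, 1156 on Top2a, 74 on Col1a1, 0 on Gpnmb, 675 on Dbp, 487 on Hsd3b5, 0 on Cyp2b10, 1 on Asns. Without shPKLR replicates 4 and 5 there were 0 on Pklr, 8 on Fasn, 964 on Top2a, 6 on Lcn2, 4 on Ifit1, 484 on Dbp, 490 on Hsd3b5, 0 on Cyp2b10, 0 on Asns. Knockdown livers alone gave 0 on Fasn, 0 on Sqle, 0 on Top2a, 0 on Col1a1, 0 on Gpnmb, 0 on Lcn2, 0 on Ifit1, 0 on Dbp, 9 on Hsd3b5, 0 on Cyp2b10, 1924 on Asns. Overexpression livers alone gave 0 on Pklr, 0 on Fasn, 3 on Sqle, 19 on Col1a1, 168 on Gpnmb, 0 on Lcn2, 3 on Ifit1, 0 on Cyp2b10, 0 on Asns. With the replicate number as a block there were 0 on Pklr, 1 on Fasn, 2 on Sqle, 0 on Top2a, 1 on Col1a1, 0 on Gpnmb, 1 on Lcn2, 0 on Ifit1, 0 on Dbp, 1 on Hsd3b5, 0 on Cyp2b10, 3 on Asns. No label says that livers of the same replicate number share anything. Within an experiment, the deviations of same-numbered livers correlated across genes between -0.279 and 0.426. These values were not set against those of differently numbered livers, so whether the numbers pair livers was not tested. The block also leaves fewer residual degrees of freedom for each slope. Leaving out each library gave 55 to 65 genes with an SD of at least 1, 196 to 263 clustered genes, 0 to 2 on Pklr, 2 to 7 on Fasn, 3 to 13 on Sqle, 3 to 866 on Top2a, 17 to 101 on Col1a1, 0 to 4 on Gpnmb, 0 to 6 on Lcn2, 3 to 25 on Ifit1, 7 to 503 on Dbp, 112 to 526 on Hsd3b5, 0 to 2 on Cyp2b10, 0 to 2495 on Asns. The cause of these moves was not tested. Of 79 named slopes, 0 were called under every alternative and 34 in every fit that left out 1 library. Under the block 6 of 79 were still called, in the knockdown livers alone 13 of 75 and in the overexpression livers alone 43 of 79, while DESeq2 called 79 and limma-voom 75. In the knockdown livers alone the slope of Aurka on Top2a was -0.112, and in the overexpression livers alone that of Ddit3 on Asns was 0.042, both opposite in sign to the reported slopes. Genes near 2 CPM, and Top2a, Cyp2b10, Gpnmb and Asns among the anchors, have the least depth behind them.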

Other observations

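Erythroid genes had the second highest median SD of the lists, and their summed level ran from 483 CPM in shLUC replicate 5 to 2721 CPM in shLUC replicate 3. Hbb-bt, a beta globin gene of red cells, was 331 CPM in shLUC replicate 3 and 35 CPM in shLUC replicate 5. Bile acid genes had a median SD of 0.38. Cyp7a1, the rate-limiting enzyme gene of bile acid synthesis, had an SD of 1.16 and ran from 9.47 CPM in shPKLR replicate 4 to 139.8 CPM in GFP replicate 1. Cidec, a lipid droplet gene, had an SD of 1.09 and ran from 2.68 to 55.2 CPM. Of the lymphocyte genes, 3 of 26 were measured, the immunoglobulin genes Igha, with an SD of 0.74, and Ighm, with 0.60, among them. Cela1, the single pancreatic acinar gene measured, ran from 6.3 CPM in GFP replicate 1 to 29.3 CPM in PKLR replicate 2, and its slope on Hsd3b5 was called, at 0.31.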
